A study of Mus musculus with 4 samples.

Results

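The caudal-type homeobox genes of the mouse are Cdx1, Cdx2 and Cdx4, and all 3 were found by name in an expression table of 51826 genes from cells directed towards mesoderm. The table held RNA sequencing values for 4 libraries, 2 of wild-type (WT) cells and 2 of cells homozygous for a deletion of Stk40 (Stk40-/-), a pseudokinase gene, on a C57BL/6 background. Both genotypes were embryonic stem cells that had been kept on fibroblast feeders, were moved off them for 1 passage, were given 10 ng/ml of BMP4 over 2 days, were then changed to 1 uM of the GSK3 inhibitor CHIR99021 with 0.5% DMSO, and were collected at day 3. The labels name no clone or culture for a library, so each genotype may stand for 1 line, and a p-value here measures no more than the spread of these libraries, which may be technical. Values are in TPM, which divides out the length of each transcript, so that the levels of different genes can be set side by side. TPM keeps no read depth, so the counting error of a single value is unknown.

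The members lie on separate chromosomes. Cdx1 (ENSMUSG00000024619.8) is on chromosome 18. Cdx2 (ENSMUSG00000029646.3) lies on the minus strand of chromosome 5, from 147300805 to 147307270, and Cdx4 (ENSMUSG00000031326.2) on the plus strand of the X chromosome, from 103321398 to 103330592, both in GRCm38. Each has 1 annotated transcript of 3 exons, of 1750 bases for Cdx1, 2261 for Cdx2 and 1963 for Cdx4, and none overlaps another annotated gene.

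The Cdx genes encode homeodomain transcription factors that descend, with Gsx and Pdx genes, from a sister cluster of the Hox genes known as ParaHox. In the embryo they are switched on in the posterior primitive streak and the tail bud, downstream of Wnt, Fgf and retinoic acid signals. There they activate Hox genes and keep the axial progenitors of the trunk and tail going. Cdx2 is also a regulator of the trophectoderm, the first tissue of the placenta, and Cdx1 and Cdx2 specify the intestinal epithelium in later life. Cdx4 is linked to Hox gene activation in embryonic blood progenitors.

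RefSeq promoter sequence (GRCm38.p6) was at hand for 2 of the 3, Cdx2 and Cdx4. The stretch before each transcript start is shown because, as given below, the groups were apart for Cdx2 and overlapped for Cdx4. Each is written 5′ to 3′ on the gene's own strand, Cdx2 from chr5:147307271-147307499 and Cdx4 from chrX:103321148-103321397. The Cdx2 stretch stops 21 bases short of the RefSeq start, where the GENCODE transcript begins. Capitals mark the octamer recognised by POU factors and, in Cdx4, the palindrome recognised by ATF and JUN dimers.
Cdx2: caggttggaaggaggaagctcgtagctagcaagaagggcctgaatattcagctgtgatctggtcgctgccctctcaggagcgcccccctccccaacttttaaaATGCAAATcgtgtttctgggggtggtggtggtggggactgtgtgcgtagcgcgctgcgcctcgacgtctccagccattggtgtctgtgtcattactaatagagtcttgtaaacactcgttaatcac
Cdx4: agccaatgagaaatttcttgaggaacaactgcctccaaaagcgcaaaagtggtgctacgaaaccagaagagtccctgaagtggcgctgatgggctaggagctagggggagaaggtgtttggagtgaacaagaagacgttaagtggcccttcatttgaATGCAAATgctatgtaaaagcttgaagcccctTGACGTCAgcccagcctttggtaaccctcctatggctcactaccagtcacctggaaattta

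Motifs were searched on both strands in the 250 bases before the RefSeq start, and were chosen after these sequences had been seen. The octamer ATGCAAAT occurred once in each of these 2 promoters, 147 to 140 bases before the start in Cdx2 and 93 to 86 bases before it in Cdx4, and in 1.60% of 32851 promoters of the same length. The palindrome TGACGTCA occurred in Cdx4 only, 61 to 54 bases before the start, and in 1.55% of all promoters. A CCAAT box, found in 33.8% of promoters, was in both. These windows of Cdx2 and Cdx4 held no match to the AP-1 site TGANTCA (6.75% of promoters), the TCF/LEF site (CTTTG with A or T at each of the next 2 places, 14.8%), the retinoic acid receptor half-site AGGTCA (14.0%), or the CDX site (TTTAT with G or T next, 25.5%). TCF/LEF proteins carry the Wnt signal to DNA, and AP-1 is the dimer that contains c-JUN. Such matches are letters only, and no binding was measured.

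Stk40 was read first as a check of the labels. It had 28.9 and 39.9 TPM for the wild-type pair against 3.54 and 3.17 TPM for the Stk40-/- pair. The Stk40-/- libraries therefore lay below wild type for the targeted gene. Its log2 fold change was -3.01 (SE 0.21, limma adjusted p = 0.139).

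Cdx1 was the most abundant member in every library. It stood at 28.2 and 27.5 TPM for the wild-type pair against 6.49 and 9.17 TPM for the Stk40-/- pair. The groups did not overlap, and the wild-type libraries differed from each other by a factor of 1.02 only. In bulk RNA fewer cells of a type and less RNA per cell cannot be told apart. The means were 27.9 ± 0.481 TPM (SD, n = 2) and 7.83 ± 1.90 TPM (SD, n = 2), so that 28.1% of the wild-type level was left. On the log2(TPM + 1) scale (a scale that makes differences of low genes look smaller), the log2 fold change was -1.72 (SE 0.20, limma adjusted p = 0.233).

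Cdx2 showed the larger difference. It was at 11.1 and 9.03 TPM for the wild-type pair against 1.46 and 0.904 TPM for the Stk40-/- pair, with no overlap of the groups. Of the wild-type mean, 10.1 ± 1.45 TPM (SD, n = 2), 11.8% was left at 1.18 ± 0.396 TPM (SD, n = 2), an 8.50-fold difference in mean TPM against 3.56-fold for Cdx1. The fitted log2 fold change was -2.35 (SE 0.28, limma adjusted p = 0.233). With the Stk40-/- values so close to the pseudocount of 1 TPM, the fitted value depended on it, and it was -3.01 with a pseudocount of 0.1 TPM.

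Cdx4 did not separate the genotypes. Its values were 5.78 and 3.96 TPM for the wild-type pair against 4.85 and 1.37 TPM for the Stk40-/- pair. Stk40-/- library 1 lay between the wild-type libraries and only Stk40-/- library 2 lay below them. The means were 4.87 ± 1.29 TPM (SD, n = 2) and 3.11 ± 2.46 TPM (SD, n = 2), and the log2 fold change was -0.64 (SE 0.53, limma adjusted p = 0.643). It came to 0.01 when Stk40-/- library 2 was left out and to -1.29 when Stk40-/- library 1 was, so that 1 library decided its sign.

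**Figure D1:**
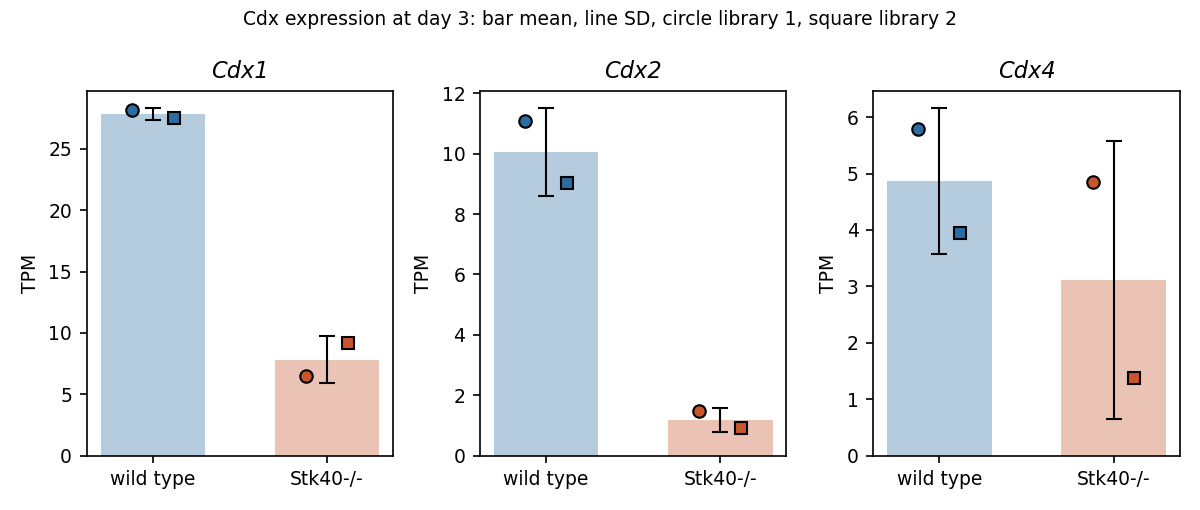
TPM of Cdx1, Cdx2 and Cdx4 (vertical axes, each from 0) in wild-type and Stk40-/- cells, with bars for the mean of 2 libraries, lines for the SD, circles for library 1 and squares for library 2. The groups are apart for Cdx1 and Cdx2 and overlap for Cdx4, where Stk40-/- library 1 (4.85 TPM) is above wild-type library 2 (3.96 TPM).

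None of the members passed limma at an adjusted p under 0.05, and neither did any other gene. limma called 0 of 15739 tested genes lower (percent called 0) and 0 higher, with a smallest adjusted p of 0.114, while 1730 genes had an unadjusted p under 0.05, 4.51% of genes on the lower side and 6.48% on the higher side. Of the members, 2 of 3 had both Stk40-/- libraries below both wild-type libraries, against 16.6% of all tested genes, and the same 2 of 3 were among the 4.51% with a lower level and an unadjusted p under 0.05. The reverse order, Stk40-/- above wild type, was found in 27.5% of tested genes and in 0 of the 3 members. A log2 fold change below -1 was found in 4.70% of tested genes. Ordered from the most negative fold change, Cdx2 was at rank 82, Cdx1 at rank 207 and Cdx4 at rank 1207 of 15739. Among the 10096 protein-coding genes averaging 5 TPM or more, 10 genes had a more negative fold change than Cdx2 and 19 than Cdx1. Cdx2 met this cut through wild type, with a mean of 10.1 TPM against 1.18 TPM in Stk40-/- cells, so its place there is a description only.

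The order of the members was not the same in the 2 genotypes. In both wild-type libraries it ran Cdx1, Cdx2, Cdx4, and in both Stk40-/- libraries Cdx1, Cdx4, Cdx2. Summed over the members, Cdx RNA was at 45.1 and 40.5 TPM for the wild-type pair against 12.8 and 11.4 TPM for the Stk40-/- pair, a 3.53-fold difference in the mean. Cdx2 made up 24.6% and 22.3% of this sum in wild type and 11.4% and 7.90% in Stk40-/- cells. For Cdx4 the share was 12.8% and 9.77% in wild type and 37.9% and 11.99% in Stk40-/- cells. Among all 21948 protein-coding genes Cdx1 stood at percentile 77.4 and 77.6 in wild type and at 56.2 and 60.5 in Stk40-/- cells, and Cdx2 went from percentile 63.2 and 61.1 to 44.5 and 41.3.

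Ratios between members were formed within each library. With no pseudocount this removes any scaling of a whole library, and with 1 TPM added it does so only in part, least for low values. The log2 ratio of Cdx2 to Cdx1, with 1 TPM added to each, was -1.27 and -1.51 in wild type and -1.60 and -2.42 in Stk40-/- cells. Cdx2 was thus lower relative to Cdx1 in the Stk40-/- libraries, by -0.62 on average. Leaving out Stk40-/- library 2 brought the difference to -0.21, leaving out Stk40-/- library 1 to -1.03, and using no pseudocount to -1.27. The log2 ratio of Cdx2 to Cdx4 was 0.83 and 1.02 in wild type and -1.25 and -0.32 in Stk40-/- cells, changing sign between the genotypes. The log2 ratio of Cdx4 to Cdx1 was -2.11 and -2.52 in wild type and -0.36 and -2.10 in Stk40-/- cells, where Stk40-/- library 2 all but met wild-type library 1. Each of the 3 pairs gave an exact two-sided permutation p = 0.333 (adjusted over the 3 pairs 0.333), the smallest p that 2 against 2 libraries allow. With no pseudocount the Cdx4 to Cdx1 ratio overlapped between the groups, with an exact permutation p of 0.667. No difference between members could therefore pass a threshold of 0.05.

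**Figure D2:**
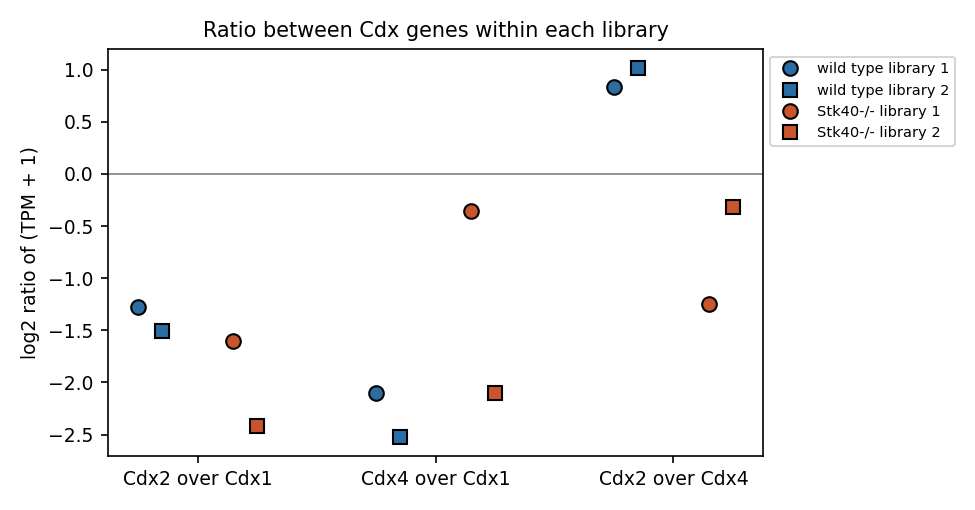
Log2 ratio of TPM + 1 between pairs of Cdx genes (vertical axis) within each of the 4 libraries, circles for library 1 and squares for library 2, blue for wild type and orange for Stk40-/-. The ratio of Cdx2 to Cdx4 is above 0 in both wild-type libraries (0.83 and 1.02) and below 0 in both Stk40-/- libraries (-1.25 and -0.32).

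The relatives of the Cdx genes in the ParaHox group were silent or nearly so. Gsx1 and Gsx2 were listed at 0 in all 4 libraries, and Pdx1 had 0.298 TPM in wild-type library 1 and listed at 0 in the others. Gsx1 and Pdx1 neighbour Cdx2, so the rest of the Cdx2 cluster was at or near 0. On the other side of Cdx2 the nearest genes, Urad and Flt3, were at or below 0.287 TPM in every library. Of its 5 nearest protein-coding genes on each side 6 were tested, 3 of these had negative fold changes, and their median was 0.03. In 4 of the 6 the groups did not overlap, with Stk40-/- below wild type in 2 and above it in 2, and 0 passed limma. Over all tested genes these 2 orders were found in 16.6% and 27.5%. Polr1d, which encodes a subunit of RNA polymerases I and III, was at 194 and 192 TPM for the wild-type pair against 184 and 180 TPM for the Stk40-/- pair. Pan3, part of a complex that shortens poly(A) tails, was at 19.5 and 26.0 TPM against 32.5 and 30.4 TPM in the same order, the other direction from Cdx2.

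Near Cdx1, 7 of 10 neighbours were tested, 3 were negative, and the median log2 fold change was 0.02. The nearest tested one, Pdgfrb, the gene of a receptor for platelet-derived growth factor found on mesenchymal cells, was at 2.74 and 1.31 TPM for the wild-type pair against 0.751 and 0.420 TPM for the Stk40-/- pair (log2 fold change -0.90, SE 0.47, limma adjusted p = 0.556). Leaving out wild-type library 1 brought it to -0.55 and leaving out wild-type library 2 to -1.24. Tcof1, which encodes a nucleolar protein, was at 52.2 and 57.6 TPM for the wild-type pair against 57.8 and 53.6 TPM for the Stk40-/- pair. Around Cdx4, 4 of 10 neighbours were tested and 1 was negative. Chic1, the nearest of them, was at 6.04 and 3.44 TPM for the wild-type pair against 6.21 and 5.44 TPM for the Stk40-/- pair. Among all tested genes 41.4% had negative fold changes.

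**Figure D3:**
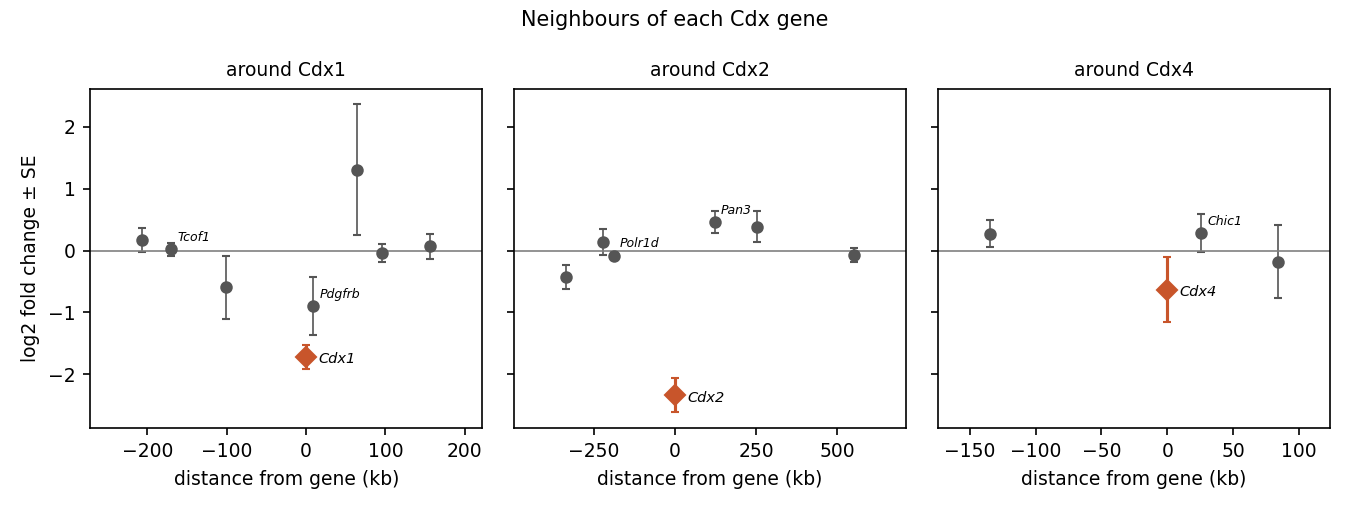
Log2 fold change of Stk40-/- against wild type with its SE (vertical axis) for each Cdx gene (orange diamond) and tested genes among its 5 nearest protein-coding neighbours on each side (grey, 1 near Cdx4 not shown), by distance in kilobases (horizontal axis). Cdx2 (-2.35) and Cdx1 (-1.72) lie below all of their tested neighbours.

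Hox genes, the best known targets of the Cdx proteins, give each segment of the body axis its identity, and the genes at the 3' end of each cluster are switched on first. At day 3 the expression was at this end. Of the 12 genes of paralog groups 1 to 4 6 were tested, of the 15 of groups 5 to 9 1, and of the 12 of groups 10 to 13 0, where 7 were listed at 0 in every library. Summed, groups 1 to 4 had 104 and 84.7 TPM for the wild-type pair against 52.2 and 63.7 TPM for the Stk40-/- pair. Groups 5 to 9, the central genes that are classical Cdx targets, had 3.80 and 2.62 TPM for the wild-type pair against 1.31 and 0.488 TPM for the Stk40-/- pair, and both Stk40-/- libraries were below wild type.

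The 3 tested Hoxb genes were lower in Stk40-/- cells, as Cdx1 and Cdx2 were. Hoxb1 was at 38.2 and 18.8 TPM for the wild-type pair against 3.62 and 4.09 TPM for the Stk40-/- pair (log2 fold change -2.52, SE 0.37, limma adjusted p = 0.265). Hoxb2 was at 8.25 and 7.003 TPM against 1.55 and 2.92 TPM, and Hoxb3 at 5.05 and 3.27 TPM against 0.419 and 1.28 TPM, in the same order. All 3 had groups that did not overlap. Hoxa2, at 2.95 and 1.66 TPM against 0.559 and 1.79 TPM, had overlapping groups. Hoxa5, the only tested central gene, was at 2.05 and 1.64 TPM for the wild-type pair against 0.711 and 0.294 TPM for the Stk40-/- pair. Of the 7 tested Hox genes 6 had negative fold changes, against 41.4% of all tested genes, and 0 passed limma. Both Stk40-/- libraries were below wild type in 5 of the 7, against 16.6% of all tested genes. Members such as Hoxb3 and Hoxa5 passed the filter of 1 TPM through wild type, with Stk40-/- means of 0.850 and 0.502 TPM. A gene that enters in this way is lower in Stk40-/- cells by its entry, so these counts are descriptions only.

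The partners with which Cdx and Hox proteins bind DNA, of the TALE class of homeodomain proteins, were present in both genotypes. Of 9 genes 8 were tested, 2 of these were negative and 6 positive, and the median log2 fold change was 0.12. Summed, they had 148 and 164 TPM for the wild-type pair against 169 and 164 TPM for the Stk40-/- pair. Meis2 was at 15.8 and 18.6 TPM for the wild-type pair against 24.7 and 26.4 TPM for the Stk40-/- pair, and Meis3 at 19.5 and 16.4 TPM against 9.48 and 14.4 TPM in the same order. Pbx4 was at 13.1 and 16.0 TPM for the wild-type pair against 27.2 and 18.5 TPM for the Stk40-/- pair. None of them passed limma (smallest adjusted p 0.400).

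Other genes that Cdx proteins bind or regulate in the tail bud were lower in most libraries. T, the brachyury factor of the streak, was at 1025 and 535 TPM for the wild-type pair against 355 and 217 TPM for the Stk40-/- pair. Wild-type library 1 was above wild-type library 2 for T, and also by a factor of 1.02 for Cdx1, 1.23 for Cdx2 and 1.46 for Cdx4. Fgf8, a growth factor of the tail bud, was at 97.8 and 82.6 TPM for the wild-type pair against 51.8 and 42.3 TPM for the Stk40-/- pair (log2 fold change -0.93, SE 0.15, limma adjusted p = 0.279). Cyp26a1, whose enzyme removes retinoic acid, was at 4.005 and 1.27 TPM against 0.634 and 0.506 TPM in the same order, and leaving out wild-type library 1 took its log2 fold change from -1.10 to -0.54, and leaving out wild-type library 2 took it to -1.67. The Wnt ligand gene Wnt3a was at 1.11 and 0.599 TPM in wild type, at 0.0559 TPM in Stk40-/- library 2 and listed at 0 in Stk40-/- library 1, under the filter on low values. Dll1, a Notch ligand gene, had overlapping groups at 3.47 and 2.86 TPM for the wild-type pair against 1.34 and 3.43 TPM for the Stk40-/- pair. Of the 4 tested genes 4 were negative and 3 had both Stk40-/- libraries below wild type, against 41.4% and 16.6% of all tested genes. Of these, Cyp26a1 passed the filter of 1 TPM through wild type, with a Stk40-/- mean of 0.570 TPM. The median log2 fold change of the 4 was -1.02, against 0.07 over all tested genes.

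Wnt signalling, the main input to Cdx genes, was described at 2 levels. Of 13 genes for ligands, receptors and transducers, 12 were tested, 7 negative and 5 positive, with a median of -0.05, and 0 passed limma. The summed level of these genes was 988 and 995 TPM for the wild-type pair against 930 and 954 TPM for the Stk40-/- pair. Wnt8a, a ligand gene of the streak, was at 211 and 212 TPM against 203 and 215 TPM, with overlapping groups. Other ligand genes were lower: Wnt5b was at 34.3 and 15.3 TPM for the wild-type pair against 10.9 and 7.29 TPM for the Stk40-/- pair, and Wnt3 at 14.4 and 14.6 TPM against 11.5 and 9.80 TPM. Wnt5a was at 16.4 and 2.76 TPM for the wild-type pair against 0.865 and 0.594 TPM for the Stk40-/- pair, and leaving out wild-type library 1 took its log2 fold change from -2.23 to -1.12, and leaving out wild-type library 2 took it to -3.33. Of 10 feedback targets, genes that a cell switches on when it receives Wnt, 8 were tested, 6 negative and 2 positive, with a median of -0.30. Sp5 was at 67.7 and 34.4 TPM for the wild-type pair against 25.7 and 13.9 TPM for the Stk40-/- pair, Axin2 at 38.3 and 29.8 TPM against 25.1 and 21.0 TPM, and Notum at 5.70 and 4.01 TPM against 0.562 and 1.503 TPM. These 3 and Sp8, of the 8 tested, had both Stk40-/- libraries below wild type, against 16.6% of all tested genes.

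Each of the other inputs held genes of both directions. Of 13 Fgf pathway genes 11 were tested, 7 negative and 4 positive, with a median of -0.14. Fgf4, an Fgf gene of pluripotent cells, was at 3.13 and 5.90 TPM for the wild-type pair against 13.4 and 9.78 TPM for the Stk40-/- pair, opposite to Fgf8. Of 15 retinoic acid genes 11 were tested, 6 negative and 5 positive, with a median of -0.02, and the receptor gene Rarg was at 20.5 and 26.0 TPM against 33.9 and 30.3 TPM. Of 15 BMP genes 15 were tested, 10 negative and 5 positive, with a median of -0.17. Id1, a direct target of BMP signals, was at 46.8 and 38.7 TPM for the wild-type pair against 22.1 and 17.0 TPM for the Stk40-/- pair. Msx1, another target, was at 2.69 and 1.81 TPM against 0.745 and 0.444 TPM. Both Stk40-/- libraries were below wild type in 5 tested Fgf, 1 retinoic acid and 5 BMP genes. They were above it in 3 Fgf, 3 retinoic acid and 1 BMP gene. Over all tested genes these orders were found in 16.6% and 27.5%, and 41.4% had negative fold changes. In these 3 lists 0 genes passed limma.

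**Figure D4:**
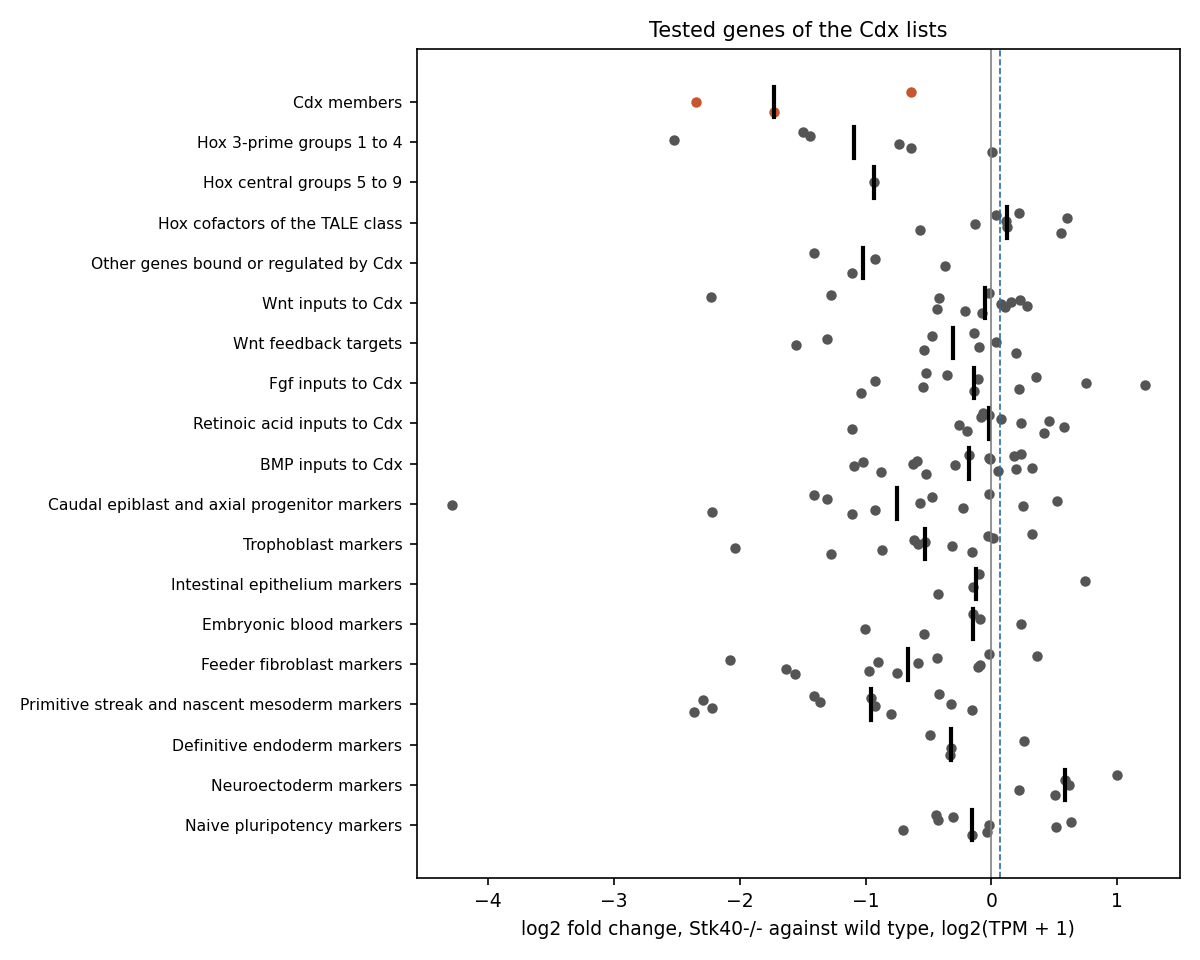
Log2 fold changes on the log2(TPM + 1) scale (horizontal axis) of the tested genes of each list, with the Cdx genes in orange, a black bar at each list's median and a dashed line at the median of all tested genes (0.07). The medians of the Cdx genes (-1.72) and of Hox groups 1 to 4 (-1.09) are lower than that of the Wnt inputs (-0.05). Also lower are, among others, the streak (-0.96), caudal epiblast (-0.75), feeder (-0.67) and trophoblast (-0.53) lists, and higher is the neuroectoderm list (0.59).

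Markers of the places where Cdx genes act were read in the same libraries. The label calls the cells mesoderm-like, and T was high. The early mesoderm gene Mixl1 was at 24.7 and 6.77 TPM for the wild-type pair against 2.06 and 1.71 TPM for the Stk40-/- pair. Msgn1, a gene of the presomitic mesoderm, had 90.6 and 7.22 TPM against 0.975 TPM in Stk40-/- library 1 and a listing at 0 in library 2. Both were far higher in wild-type library 1 than in wild-type library 2. The mesoderm regulator Mesp1 was low, with 0.177 TPM in wild-type library 1 and a listing at 0 in the others, and Tbx6 of the paraxial mesoderm was at 2.33 and 0.468 TPM for the wild-type pair against 0.358 and 0.661 TPM for the Stk40-/- pair. Of 15 streak and nascent mesoderm markers 11 were tested and all 11 were negative, against 41.4% of all tested genes. In 9 of them both Stk40-/- libraries were below wild type, against 16.6% of all tested genes. The summed level of the 15 markers was 1349 and 754 TPM for the wild-type pair against 482 and 326 TPM for the Stk40-/- pair. Most of it came from T. Wild-type library 1 was above wild-type library 2 here, as also for Cdx2 (factor 1.23) and Cdx4 (1.46), while Cdx1 was nearly equal in them (1.02). Of 15 caudal epiblast markers, 12 were tested, 10 negative, and 9 had both Stk40-/- libraries below wild type, against the same shares of all tested genes. Nkx1-2, a marker of axial progenitors, was at 61.0 and 55.5 TPM for the wild-type pair against 37.2 and 40.7 TPM for the Stk40-/- pair. Their summed level was 990 to 1609 TPM in wild type and 588 to 723 TPM in Stk40-/- cells. T, Fgf8 and Evx1 are in both of these lists. T, Fgf8, Cyp26a1 and Wnt3a of the caudal list are also among the Cdx-regulated genes above. Sp5 and Sp8 of the caudal list are also Wnt feedback targets. Wnt3 of the streak list and Wnt3a and Wnt8a of the caudal list are also Wnt inputs. Fgf8 and Cyp26a1 are also in the Fgf and retinoic acid lists, so the lists are not separate observations. Evx1 and, in the caudal list, Msgn1 were among the genes that passed the filter of 1 TPM through wild type. Their Stk40-/- means were 0.353 and 0.487 TPM, so the counts of these lists are descriptions only. None of the streak or caudal epiblast markers passed limma, and their part in the Cdx values was not tested.

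Markers of other fates were read as well. Of 10 neuroectoderm markers 5 were tested and all 5 were positive, with a median log2 fold change of 0.59. Among all tested genes 41.4% were negative. In 4 of the 5 both Stk40-/- libraries were above wild type, against 27.5% of all tested genes. Sox3, a gene of neural progenitors, was at 14.0 and 22.6 TPM for the wild-type pair against 23.8 and 31.1 TPM for the Stk40-/- pair, and the neuronal tubulin gene Tubb3 at 2.66 and 3.97 TPM against 4.84 and 11.5 TPM. Their summed level was 82.5 to 89.6 TPM in wild type and 95.0 to 134 TPM in Stk40-/- cells. Of 10 naive pluripotency markers 9 were tested, 7 negative and 2 positive, with a median log2 fold change of -0.15. Both Stk40-/- libraries were above wild type in 2 of the 9 and below it in 1. Nanog, a core pluripotency factor and 1 of the 2 positive genes, was at 113 and 132 TPM for the wild-type pair against 219 and 166 TPM for the Stk40-/- pair. Zfp42 went the other way without overlap of the groups, with a log2 fold change of -0.44, so the list had no common direction. In these 2 lists 0 genes passed limma.

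Trophoblast markers were examined because Cdx2 also marks that lineage. Of 17 markers 11 were tested, 9 negative (all tested genes 41.4%), and 5 had both Stk40-/- libraries below wild type (all tested genes 16.6%). Their summed level was 863 to 1263 TPM in wild type and 630 to 776 TPM in Stk40-/- cells, most of it from the keratin genes Krt8 and Krt18, which other epithelia express. Members of the list differed in level. Elf5 was at or below 0.149 TPM in every library, Gata3 at or below 1.06 TPM, and the placental genes Prl3d1 and Tpbpa were listed at 0 in all 4. Tfap2c was between 13.5 and 21.8 TPM, Plet1 between 11.2 and 14.3 TPM and Tead4 between 4.03 and 6.75 TPM, each with overlapping groups. Eomes overlapped between the groups, at 3.91 and 2.37 TPM for the wild-type pair against 2.82 and 2.51 TPM for the Stk40-/- pair. Gata2 was at 9.20 and 7.36 TPM for the wild-type pair against 1.08 and 1.43 TPM for the Stk40-/- pair (log2 fold change -2.04, SE 0.27, limma adjusted p = 0.265), and Ascl2 at 3.92 and 3.94 TPM against 1.26 and 0.835 TPM. The part of trophoblast cells in the Cdx2 values was not tested.

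Intestinal markers, which Cdx1 and Cdx2 control in the gut, were at or below 3.28 TPM in every library. Of 18 genes 4 were tested and 7 were listed at 0 in every library, among them Cdh17, the gene of an intestinal cadherin, and Hnf4a. Vil1, which encodes villin of the brush border, was between 0.557 and 1.58 TPM, and Muc2, the main intestinal mucin gene, between 0.0612 and 1.18 TPM. Gpa33 was at 3.28 and 2.84 TPM for the wild-type pair against 2.07 and 1.97 TPM for the Stk40-/- pair, without overlap. Lgals4 and Krt20 had overlapping groups, between 0.454 and 3.10 TPM and between 1.05 and 2.33 TPM. Of 13 markers of blood precursors, where Cdx4 acts, 5 were tested, 4 negative and 1 positive (all tested genes 41.4% negative). Both Stk40-/- libraries were below wild type in 1 (all tested genes 16.6%), Etv2, at 2.68 and 1.84 TPM against 1.10 and 1.37 TPM. Lmo2 had overlapping groups, at 4.53 and 3.53 TPM for the wild-type pair against 6.26 and 3.79 TPM for the Stk40-/- pair. The embryonic globin genes Hbb-bh1, Hbb-y and Hba-x were listed at 0 in all 4 libraries. Of 16 feeder fibroblast markers 12 were tested and 11 were negative (all tested genes 41.4%). Of the 12, 7 had both Stk40-/- libraries below wild type (all tested genes 16.6%). The summed level of the 16 was 471 to 472 TPM in wild type and 332 to 347 TPM in Stk40-/- cells. Most of it was from Tagln (385 and 359 TPM against 268 and 282 TPM), which early mesenchyme also makes. Some low members differed between wild-type libraries 1 and 2, in that order. Col3a1 was at 1.35 and 6.31 TPM, Col1a2 at 2.80 and 6.87 TPM, S100a4 at 0 and 16.7 TPM, and, the other way, Dcn at 1.68 and 0.429 TPM. Acta2, the gene of smooth muscle actin, was at 14.3 and 11.7 TPM for the wild-type pair against 4.59 and 2.99 TPM for the Stk40-/- pair. The collagen gene Col1a1 was at 6.98 and 7.29 TPM against 3.96 and 3.74 TPM, and Mmp2, the gene of a matrix protease, at 18.6 and 17.1 TPM against 10.7 and 12.5 TPM. Fbln1 was between 24.6 and 29.8 TPM with overlapping groups, and Lum and Postn were at or below 0.331 TPM. The part of feeder cells in the Cdx values was not tested.

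Genes whose 4 values most resembled those of a Cdx gene were ranked by the root mean square difference of centred log2(TPM + 1) values over the 4 libraries. For Cdx1 the nearest were Tspo2 (0.07), Ccdc120 (0.10), C430049B03Rik (0.10), Ebp (0.15), Hmgn2 (0.15) and Cdkn1c (0.16). Hmgn2, which encodes a nucleosome-binding protein, was at 346 and 330 TPM for the wild-type pair against 93.4 and 96.2 TPM for the Stk40-/- pair. Ebp, a cholesterol synthesis gene, and Ccdc120 lie on the X chromosome, as do Nudt11 and Clcn5. The latter 2 also ranked among the 6 nearest once the search was limited, after the values were seen, to protein-coding genes averaging 5 TPM or more. The 364 on the X chromosome, among 10096 such genes, had a median log2 fold change of 0.07, and 42.9% were negative. For Cdx2 all 6 nearest genes, at 0.14 to 0.15, were short or little known RNAs listed at 0 in both Stk40-/- libraries, such as Gm24261 and Mir142b. Within the limited search the nearest to Cdx2 were Nxf7 (0.23), Hmgn2 (0.31), Hoxb1 (0.32), Igf2 (0.38), Acta2 (0.39) and Clcn5 (0.40). For comparison, Cdx1 and Cdx2 were 0.43 apart, so each had closer neighbours than the other Cdx gene.

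The pattern of Cdx4 belonged to other genes. Its nearest was Cryab, the gene of a small heat shock protein, at 25.8 and 19.0 TPM for the wild-type pair against 23.8 and 9.30 TPM for the Stk40-/- pair (0.05). Within the limited search Zfp579 (0.07), Slc15a2 (0.09) and the keratin gene Krt7 (0.11) followed. All of them had their lowest value in Stk40-/- library 2. Cdx4 was 0.84 from Cdx1 and 0.92 from Cdx2. With 4 libraries many genes can lie close to any pattern, and these lists are descriptions.

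**Figure D5:**
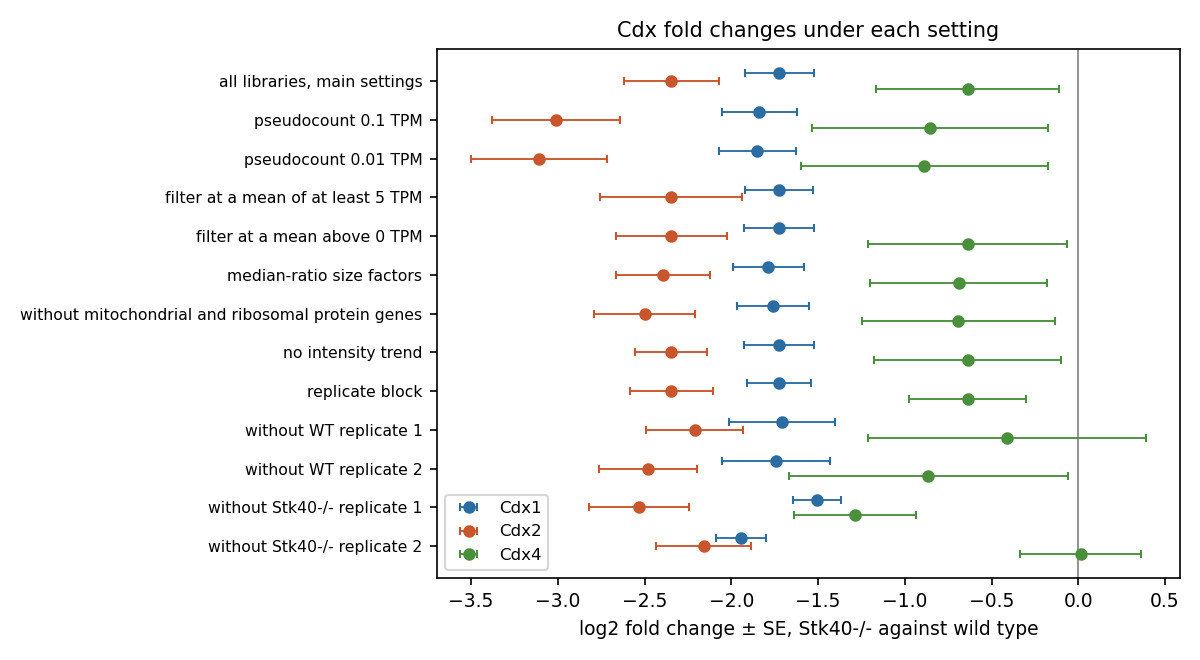
Log2 fold change of Cdx1 (blue), Cdx2 (orange) and Cdx4 (green) with its SE (horizontal axis) under the main settings and each alternative (vertical axis). Cdx1 stays between -1.95 and -1.504 and Cdx2 between -3.11 and -2.16, while Cdx4 runs from -1.29 to 0.01.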

How the data were processed

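RNA was measured in 2 wild-type and 2 Stk40-/- libraries, grouped and numbered by the sample titles. Per the labels' protocols, polyadenylated RNA was read on either of 2 instruments with different read lengths. The instrument of each library is not known here, so instrument and genotype cannot be told apart and no batch term was fitted. The deposited values are TPM, per the file headers, and the 4 columns each total 1000000. The submitters' processing notes list CASAVA 1.7, Salmon 0.8.2 and the human build hg38, although the gene IDs are mouse Ensembl IDs. Because TPM is a share, abundant RNAs that gain lower the rest. There were 0 unused sample columns.

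The 15739 genes averaging 1 TPM or more were fitted in limma 3.58.1 (R 4.3.3) as log2(TPM + 1), with an intensity trend, no replicate block and Benjamini-Hochberg adjustment over all tested genes at 0.05. The average was taken over all 4 libraries, so in every list a gene under 1 TPM in 1 genotype could pass through the other. Positions came from GENCODE vM21 on GRCm38. The members, the gene lists, the rule for named genes and the tests were chosen with earlier results of these data known. The rule named the Cdx genes, Stk40, up to 4 genes per list by unadjusted p, Hox genes above the filter, a set of key regulators, the 5 nearest coding genes on each side of each Cdx gene, and the 6 genes most like each in pattern. Other list members given as low or at 0 were picked after their values were seen. So were Tfap2c, Plet1, Tead4, Acta2, Col1a1, Col1a2, Col3a1, S100a4, Dcn, Mmp2, Fbln1, Tagln, Krt18, Fgf4, Rarg and Msx1 where they fall outside it. Alternatives changed the pseudocount (0.1 and 0.01), the filter (above 0 and at least 5 TPM), the scaling, the trend, the block and the libraries used. The sequence of Cdx1 and the values of some genes that the rule names are not reported here.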

Additional observations from a re-analysis of the deposited data

How the results depend on the processing

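Under 12 alternatives Cdx1 stayed negative, from -1.95 to -1.504 (limma adjusted p from 0.179 to 0.476), and so did Cdx2, from -3.11 to -2.16 (0.168 to 0.578). No gene was called in either direction under any of them, with smallest adjusted p values from 0.0694 to 0.319. Stk40 stayed negative with an adjusted p between 0.104 and 0.505. With the replicate block, the log2 fold changes of the Cdx genes did not move and their limma adjusted p values were 0.279, 0.277 and 0.487 for Cdx1, Cdx2 and Cdx4. The replicate differences of the genotypes correlated across genes with r = 0.09, and nothing in the labels says that equal numbers share a culture, so the block is an alternative only. At a mean of at least 5 TPM, Cdx4 fell under the filter and has no value. With median-ratio scaling, which moves the median of all tested genes from 0.07 to 0.003, Tcof1 was at -0.045 and Plet1 at -0.047. With 1 library left out, Cdx4 ranged from -1.29 to 0.014, Dll1 from -0.83 to 0.093, Wnt8a from -0.063 to 0.024, Krt7 from -1.31 to 0.25, Eomes from -0.42 to 0.12, Cryab from -1.17 to 0.10, Zfp579 from -1.13 to 0.040, Chic1 from -0.047 to 0.62, Tcof1 from -0.049 to 0.090, Vil1 from -0.44 to 0.25, Tead4 from -0.34 to 0.29, Plet1 from -0.15 to 0.18 and Fbln1 from -0.20 to 0.027. Counting these, 32 of the 70 genes examined this way turned sign or moved by over 1.5 times. Where 1 library is left out its group has 1 sample, which is assumed to vary like the other group.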
